A study of Mus musculus with 8 samples.

Results

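Which functions and gene families are higher or lower in IdHPCs after deletion of Pcgf1 was asked of 4 RNA-seq libraries, 2 from control and 2 from Pcgf1-KO IdHPCs, out of 8 libraries in the series. IdHPCs are multipotent hematopoietic progenitors held in culture by Id3, an inhibitor of the E proteins that drive lymphoid commitment. All 12272 genes with at least 1 CPM (reads scaled to the library total) in any of the 4 libraries were taken, out of 23284 gene symbols listed. All 4 libraries came from bone marrow LSK cells of B6CBAF1/J background that were transduced with human Id3, kept on TSt4 stromal cells with IL7, SCF and Flt3L, and used at passage 15 to 18. The genotypes were Pcgf1 fl/fl for control and Pcgf1 -/- for Pcgf1-KO. The deletion was induced through ERT2-Cre by 4 days of 4-OHT, and the treatment of the control IdHPCs is not stated for these libraries. In another experiment of the study, control IdHPCs were ERT2-Cre Pcgf1 fl/fl cells given ethanol. The study describes independent experiments for its transcriptomes but not whether the IdHPC lines were clonal, so p-values measure the spread between these libraries only. In addition, 4 libraries of LMPPs, lymphoid-primed progenitors sorted from bone marrow (2 labelled Pcgf1 fl/fl and 2 labelled Pcgf1 -/-), served to mark genes whose reads might be feeder RNA: a gene under 1 CPM in all 4 LMPP libraries is called LMPP-low here. Pcgf1 went against the label in 2 of these: the fl/fl label had 8.04 and 1.15 CPM and the -/- label 6.66 and 1.82 CPM, so no LMPP genotype is compared here. The LMPP labels give the same stromal culture, and the study describes 4 days with 4-OHT on TSt4 cells for sorted LMPPs, so the mark rests on how little stromal RNA those libraries held.

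PCGF1 is the ring finger protein that defines a variant Polycomb repressive complex 1, together with RING1A or RING1B, KDM2B and BCOR. The complex is brought to unmethylated CpG islands by KDM2B and places ubiquitin on histone H2A, a mark tied to gene repression. In blood, the gene for its subunit BCOR is known to be mutated in some myeloid leukemias.

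The deletion was seen on the exons of Pcgf1 itself, which lies on the forward strand of chromosome 6 (NCBIM37). Exons 2 to 7, the deleted part, held 193 and 173 control reads against 15 and 15 after deletion. Exons 1, 8 and 9, which stay in the genome, held 73 and 79 reads against 56 and 68, which overlapped as CPM (2.24 and 2.26 against 1.97 and 3.2). The exons outside the deletion thus still gave reads, and the residual reads on the deleted exons made up 21.1% and 18.1% of the Pcgf1 reads of the Pcgf1-KO libraries, against 72.6% and 68.7% in the controls. Exon 2, the first deleted exon, is shown because its loss marks the genotype: it spans chr6:83028889-83028994 (106 bases) and held 44 and 37 control reads against 4 and 6. In the sequence below, capitals are the exon and the 10 bases on each side are intron.
Pcgf1 exon 2: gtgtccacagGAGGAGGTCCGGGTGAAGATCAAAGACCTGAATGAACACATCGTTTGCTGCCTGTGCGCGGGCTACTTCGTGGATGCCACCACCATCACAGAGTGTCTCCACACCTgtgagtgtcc
Summed over its exons, Pcgf1 stood at 8.14 and 7.22 CPM in control against 2.49 and 3.91 CPM in Pcgf1-KO, and the log2 fold change of -1.07 (SE 0.30) did not pass the test across all genes (limma, adjusted p = 0.126).

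**Figure D1:**
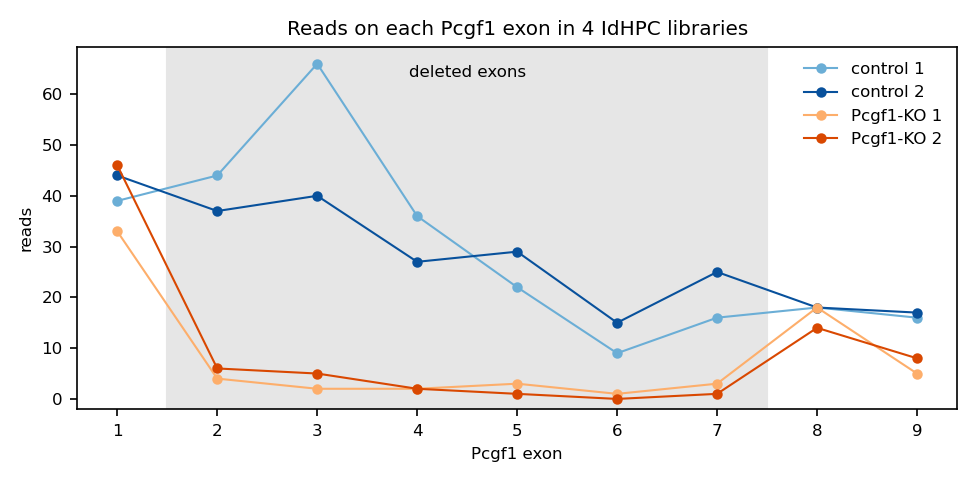
Reads (vertical axis) on each of the 9 exons of Pcgf1 (horizontal axis) in the 4 IdHPC libraries, 1 line per library, with the deleted exons shaded. On exon 2 the controls held 44 and 37 reads and the Pcgf1-KO libraries 4 and 6, while exon 1 held 39 and 44 against 33 and 46.

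Facts of the libraries that touch the results below are the depth, the coverage along genes and the stromal RNA. Distinct rows held between 15717645 reads, in Pcgf1-KO 2, and 25292626 reads, in control 2. The row at the 3′ end of genes took 27.4% of the reads in Pcgf1-KO 2, against 21.9% to 23.6% in the other 3 libraries (7761 genes). In the 2400 genes with the shortest exonic length, up to 2086 bases, the median log2 difference from controls was 0.05 and 0.16 for Pcgf1-KO 1 but 0.31 and 0.40 for Pcgf1-KO 2. In the 2396 longest, from 6262 bases, it was 0.01 and -0.10 for Pcgf1-KO 1 but -0.32 and -0.43 for Pcgf1-KO 2. Short genes were thus higher and long genes lower in the Pcgf1-KO libraries, mainly through Pcgf1-KO 2. Of 20 markers of stromal cells, 18 were tested and 16 were higher in both Pcgf1-KO libraries than in both controls. Their summed level was 3863 and 3467 CPM in control against 7989 and 6406 CPM in Pcgf1-KO. In the LMPP libraries 13 of the 18 stayed under 1 CPM, and Pdgfrb, at up to 56.85 CPM, was the highest of the others. The Y-linked genes Eif2s3y (3.37 and 3.12 CPM in controls, 8.57 and 6.49 in Pcgf1-KO) and Uty (0.70 and 0.92 against 1.90 and 1.27) were also higher, while they had no read in the LMPP libraries. Xist, the RNA that coats the inactive X chromosome, stood at 1046 and 1445 CPM against 585 and 546 (log2 fold change -1.12, adjusted p = 0.065). In bulk RNA a smaller share of cells of one kind and less RNA per cell cannot be told apart.

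**Figure D2:**
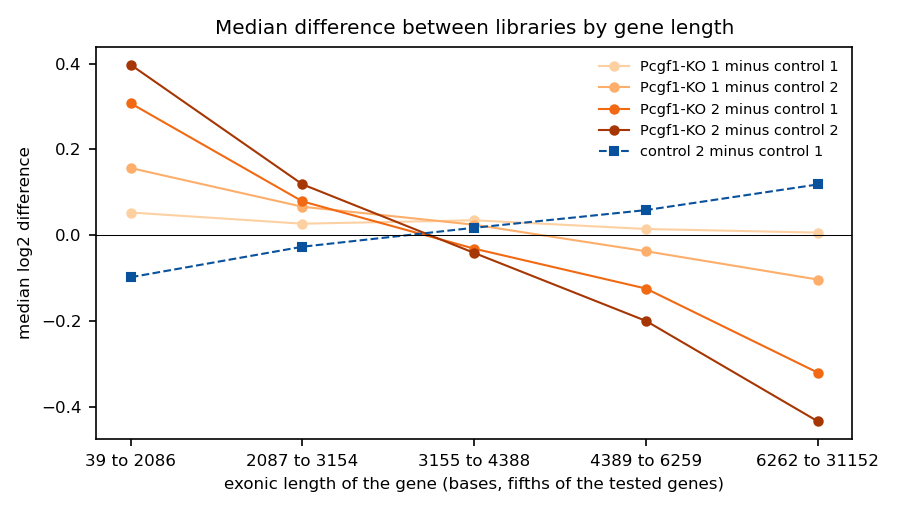
Median log2 difference between 2 libraries (vertical axis) over genes of each of 5 classes of exonic length in bases (horizontal axis), for the 4 pairs of a Pcgf1-KO and a control library and for the pair of controls (dashed). Lines of Pcgf1-KO 2 run from 0.31 and 0.40 in the shortest class to -0.32 and -0.43 in the longest, while Pcgf1-KO 1 minus control 1 stays between 0.01 and 0.05.

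The cells carried the markers of progenitors. Flt3, the cytokine receptor that marks LMPPs, stood at 425 to 631 CPM in the 4 libraries, Ptprc, the pan-leukocyte phosphatase, at 159 to 327 CPM, and Id3 at 65.6 to 93.6 CPM. Of 10 neutrophil markers only Mpo reached 1 CPM, with at most 2.91 CPM, and 5 had no read. None of 7 mast cell and basophil markers reached 1 CPM, while of 6 markers of committed B cells 2 did: Cd22, an inhibitory receptor (9.64 and 21.8 CPM in control against 8.15 and 20.1), and Pax5, given below. None of the 8 progenitor markers passed the limma test, and 2 lay above and 2 below both controls. The 2 below were Ptprc (258 and 327 CPM against 218 and 159) and Il7r, the IL7 receptor (60.04 and 83.8 against 55.6 and 47.0). By edgeR's exactTest, the test of the study's methods, run on reads recovered from CPM, the 2 above were called higher: Cd34 (108 and 105 CPM against 247 and 177) and Ly6a, which encodes Sca-1 (44.3 and 34.4 against 76.7 and 67.7).

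With limma on log2(CPM + 1) and Benjamini-Hochberg adjustment over all 12272 genes, 30 genes (0.244%) were higher and 31 (0.253%) lower in Pcgf1-KO IdHPCs at an adjusted p under 0.05. Verbs such as rose and fell are kept for these. The exactTest called 462 genes (3.76%) higher and 162 (1.32%) lower, with all 30 and 31 among them. Both Pcgf1-KO libraries lay above both controls for 3138 genes (25.6%) and below both for 2621 (21.4%), and these shares are the background for the counts that follow. The median log2 fold change of all genes was 0.01. The calls depended on control 2: without it limma called 0 genes higher and 15 lower, of which 14 were among the 31, and exactTest 9 and 28. Without control 1 limma called 41 and 40, without Pcgf1-KO 1 222 and 565, and without Pcgf1-KO 2 163 and 59, where the group left with 1 library is assumed to vary like the other. Without the row at the 3′ end of each gene 0 rises and 3 falls were left by limma (Gbp4, Gbp8 and Nlrp3) and 164 and 75 by exactTest.

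**Figure D3:**
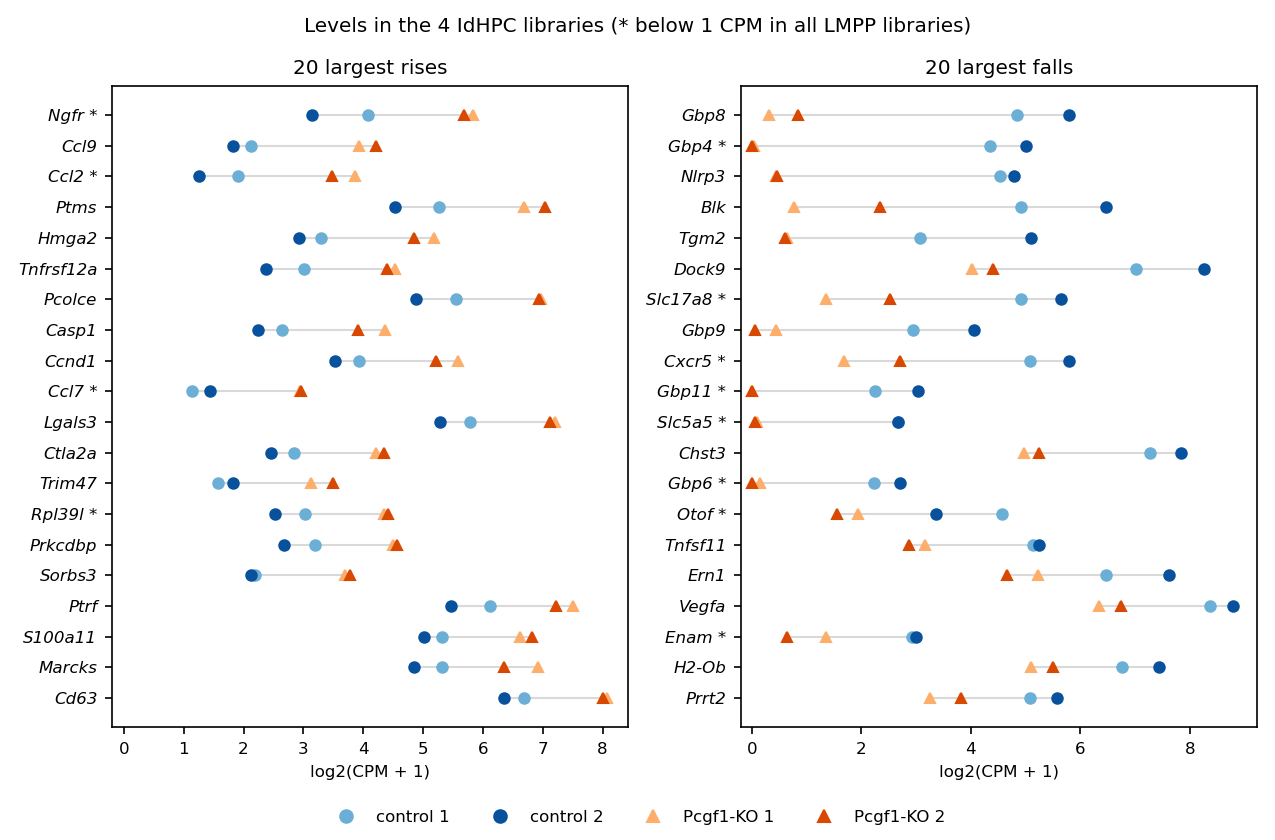
Level as log2(CPM + 1) (horizontal axis) of the 20 largest rises and 20 largest falls among the genes that passed the limma test, with circles for the 2 control and triangles for the 2 Pcgf1-KO libraries; an asterisk marks genes under 1 CPM in all LMPP libraries. For all 40 genes both Pcgf1-KO libraries lie on one side of both controls, and Gbp4, Gbp11 and Nlrp3 come close to 0 in Pcgf1-KO.

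The deepest falls were in genes of cell-autonomous defense. Guanylate-binding proteins are interferon-inducible GTPases that attack the vacuoles of intracellular pathogens. Of 15 tested genes in the list of guanylate-binding proteins and immunity-related GTPases, 5 fell, all of them neighbors on chromosome 5: Gbp4, Gbp6, Gbp8, Gbp9 and Gbp11. Gbp8 went from 27.7 and 54.3 CPM in control to 0.246 and 0.80 (log2 fold change -4.73, SE 0.36, adjusted p = 0.00035). Gbp4 had 19.5 and 31.0 CPM in the controls and a single read in the 2 Pcgf1-KO libraries together, against 1719 reads, a ratio of 1265 with a 95% counting interval from 227 to 50008. Gbp11 had 373 control reads and none in Pcgf1-KO, so that it was at least 44.3-fold lower against a floor of 3 reads per library. The other 10 members of the list did not pass: Gbp7 had 16.3 and 20.8 CPM against 15.4 and 7.81, Irgm1 had 26.1 and 36.3 against 32.6 and 28.7, and Gbp2 had 0.73 and 0.75 against 1.90 and 1.22. ExactTest called Iigp1, an immunity-related GTPase, higher at low levels (0.184 and 0.0573 against 1.02 and 0.612 CPM). In all 9 of the 15 lay below both controls and 2 above. The median over the list was -0.69, with medians of the 4 library pairs from -0.89 to -0.23. Gbp4, Gbp6 and Gbp11 were LMPP-low, and their fall went opposite to the stromal markers.

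Nlrp3, the sensor that assembles the inflammasome and activates caspase-1, fell from 22.04 and 26.8 CPM to 0.351 and 0.376 (a log2 fold change of -4.21, SE 0.28, adjusted p = 0.00015). Casp1, the protease downstream of it, rose from 5.27 and 3.75 to 19.7 and 14.1 CPM (1.69, SE 0.29). Casp12, its neighbor in the genome, had 4.56 and 4.44 against 13.8 and 10.6 CPM and was called by exactTest only. Of the 20 tested genes on the list of inflammasome genes and NOD-like receptors these were the 1 that rose and the 1 that fell. Another 4 lay above both controls and 4 below, shares near those of all genes, and the median was -0.20. ExactTest called 2 of the 20 higher (10%) and 3 lower (15%), against 3.76% and 1.32% of all genes. Among Toll-like receptors and adaptors none of 16 passed limma, with Tlr9, the endosomal DNA sensor, called lower by exactTest (3.89 and 4.04 against 1.83 and 0.89 CPM). None of 27 other interferon-stimulated genes passed limma, and Oas3, an RNA-sensing oligoadenylate synthetase, was the only one called by exactTest (4.87 and 5.16 against 1.40 and 1.32 CPM). Of these 27 genes 11 lay below both controls and 5 above. Their median was -0.15, with medians of the 4 library pairs from -0.32 to 0.06.

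Antigen presentation lay lower as well, mostly without passing the test. MHC class I molecules show peptides made by the proteasome and carried by the Tap transporter. Of 24 tested genes of class I and peptide loading none passed limma, but 13 lay below both controls and 2 above, and the median was -0.48. Nlrc5, the transactivator of class I genes, was called lower by exactTest, with 179 and 207 CPM in the controls against 122 and 93.2. Tap1 had 286 and 350 CPM against 150 and 238. H2-K1, a classical heavy chain, had 1110 and 1188 against 680 and 1031 CPM. The library pairs were uneven, from -0.70 to -0.03, and those of Pcgf1-KO 2 were the smaller. In class II, H2-Ob, a subunit of the H2-O protein that restrains peptide exchange, fell from 108 and 173 to 33.2 and 44.1 CPM (-1.81, SE 0.27, adjusted p = 0.024). It was the 1 of 8 tested class II genes to pass, while Cd74, the invariant chain, overlapped between the groups (24.8 and 12.5 against 19.2 and 28.6 CPM).

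Of the B lineage list 1 gene fell, and none of the T lineage list. The other falls in this paragraph come from other lists or, for Lax1, from none. Blk, a Src-family kinase of B cells, fell from 29.3 and 87.0 to 0.70 and 4.09 CPM (-4.13, SE 0.55, adjusted p = 0.014). Cxcr5, the receptor that guides B cells to follicles, fell from 32.9 and 54.4 to 2.21 and 5.55 CPM (-3.24, SE 0.37) and was LMPP-low. Irf4, a transcription factor of lymphoid activation and plasma cells, fell from 13.8 and 12.3 to 3.65 and 3.39 CPM. Tnfsf11, the RANK ligand, fell from 34.1 and 36.8 to 8.01 and 6.31 CPM. Lax1, an adaptor that dampens lymphocyte receptor signaling, fell from 75.4 and 107 to 22.96 and 33.3 CPM. Pax5, the B cell master regulator, had 6.31 and 3.70 against 2.42 and 0.423 CPM and did not pass. Of 26 tested B lineage genes 1 fell, 9 lay below both controls and 3 above, with a median of -0.07. By exactTest 2 were lower and 2 higher, 1 of the latter being Cd24a, a surface protein of early B cells (35.4 and 58.7 against 71.4 and 110.4 CPM). Control 2 differed from control 1 by a median of 0.54 over these genes, more than any pair of Pcgf1-KO and control libraries. Of 20 T lineage genes and Notch targets none passed either test. Of 4 tested natural killer genes, exactTest called 2 lower: Klrb1f, a lectin-like receptor (33.2 and 23.6 against 14.8 and 7.06 CPM), and Il2rb, the shared receptor chain for IL2 and IL15 (19.04 and 14.8 against 7.76 and 2.35 CPM).

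Other falls were spread over signaling, transport and the extracellular sugar coat. Vegfa, the vascular growth factor and a classical hypoxia target, fell from 327 and 441 to 80.1 and 106 CPM (-2.03, SE 0.24, adjusted p = 0.0069). It was the 1 of 18 tested hypoxia genes to pass, although 11 lay below both controls and 1 above (median -0.37). Over this list control 2 differed from control 1 by a median of 0.54. Pair medians were -0.15 and -0.06 against control 1 but -0.70 and -0.57 against control 2. By exactTest 2 were lower, Vegfa and Kdm3a, a histone demethylase (67.97 and 136 CPM against 50.1 and 46.1). Bnip3, a mitophagy receptor, had 140 and 302 against 92.1 and 134.9 CPM. For both Kdm3a and Bnip3 the controls differed from each other by about as much as the groups did. Dock9, an activator of the GTPase Cdc42, fell from 129 and 307 to 15.2 and 20.2 CPM (-3.43, SE 0.36, adjusted p = 0.0044). Chst3, a sulfotransferase that modifies chondroitin, fell from 154 and 227 to 30.2 and 37.1 CPM (-2.45, SE 0.25). Ern1, the IRE1 sensor of the unfolded protein response, fell from 87.9 and 195 to 36.7 and 24.2 CPM, whereas none of 19 genes listed for that response passed either test. Tgm2, a transglutaminase, fell from 7.44 and 33.5 to 0.56 and 0.52 CPM. Among 222 tested transporters 3 fell and none rose: Slc17a8, a vesicular glutamate transporter (29.1 and 49.4 to 1.54 and 4.75 CPM), Slc5a5, the iodide symporter (5.36 and 5.39 to 0.070 and 0.047 CPM), and Slc35d3 (26.5 and 35.8 to 10.7 and 9.60 CPM). Over that list the median was -0.04. Slc17a8 and Slc5a5 were LMPP-low.

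Chemokines were the list with the highest median, 1.19, over 10 tested genes, of which 3 rose, 8 lay above both controls and none below. Ccl9, a myeloid chemokine, rose from 3.37 and 2.55 to 14.2 and 17.6 CPM (2.095, SE 0.28, adjusted p = 0.015), and LMPPs held it at up to 185 CPM. Ccl2 and Ccl7, neighboring genes on chromosome 11 that attract monocytes, rose from 2.76 and 1.38 to 13.5 and 10.1 CPM and from 1.19 and 1.72 to 6.67 and 6.78 CPM. Both were LMPP-low. Cxcl12, the stromal chemokine that retains progenitors in the marrow, had 133.9 and 64.3 against 545 and 224 CPM and was called by exactTest only (limma adjusted p = 0.072); it is LMPP-low and also one of the 20 stromal markers. Over the 4 members that were not LMPP-low the median was also 1.19. Of 8 tested chemokine receptors 1 lay above both controls and 4 below, with a median of -0.43. Cxcr5 fell, Ccr7, which guides cells to lymph nodes, was called lower by exactTest (17.3 and 9.17 against 5.69 and 5.46 CPM), and Ccr9, which guides cells to gut and thymus, was called higher (1.96 and 3.75 against 7.80 and 13.4 CPM).

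S100 proteins and annexins, calcium-binding proteins of the membrane and cytoskeleton, were higher with or without the LMPP-low genes. The mark does not tell feeder RNA from progenitor RNA for genes that both express. S100a6, S100a11 and Anxa2 reached 27.8, 46.9 and 215 CPM in LMPPs, so they could not be marked. The part of the stromal RNA in the values of this list was not tested. Of 18 tested genes 3 rose, exactTest called 9 higher and none lower, 14 lay above both controls and 1 below, and the median was 0.79. All 4 library pairs gave medians between 0.67 and 0.94, and the 16 genes that were not LMPP-low gave 0.77. S100a11 rose from 39.0 and 31.2 to 97.1 and 112 CPM (1.56, SE 0.23, adjusted p = 0.021). S100a6 rose from 37.6 and 26.2 to 77.5 and 98.7 CPM. Anxa2, which pairs with S100a10 at the membrane, rose from 118 and 110 to 268 and 330 CPM (1.38, SE 0.21). S100a4 had 126 and 98.4 against 231 and 280 CPM and missed the limma threshold (adjusted p = 0.052). These genes are short, with a median exonic length of 1779 bases against 3743 over all tested genes, and after the median of genes of like length was subtracted the list stood at 0.58.

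The rises that LMPPs also expressed included the following genes, which belong to no common list. Hmga2, an architectural chromatin protein of fetal progenitors, rose from 8.85 and 6.65 to 35.2 and 27.7 CPM (1.89, SE 0.27, adjusted p = 0.021). Ccnd1, cyclin D1, rose from 14.2 and 10.5 to 46.9 and 36.3 CPM (1.67, SE 0.26), while the other 12 tested cyclins, Cdks and Cdk inhibitors of its list did not pass. Ptms, parathymosin, a small nuclear protein, rose from 37.3 and 22.1 to 102 and 130 CPM (1.96, SE 0.28). Tnfrsf12a, the receptor for TWEAK, rose from 7.04 and 4.18 to 22.2 and 20.1 CPM. Lgals3, galectin-3, rose from 54.2 and 37.9 to 147 and 138 CPM. Ptrf and Prkcdbp, coat proteins of caveolae, rose from 68.9 and 43.3 to 181 and 149 CPM and from 8.21 and 5.39 to 21.6 and 22.5 CPM. Cd63, a tetraspanin of late endosomes, rose from 102 and 80.5 to 270 and 258 CPM. Marcks, an actin-linked substrate of protein kinase C, rose from 38.7 and 28.0 to 120 and 80.5 CPM. Ctla2a, an inhibitor of cysteine proteases, rose from 6.15 and 4.53 to 17.6 and 19.4 CPM. Trim47 (1.96 and 2.52 to 7.72 and 10.3 CPM) and Sorbs3, the adhesion adaptor vinexin (3.58 and 3.35 to 11.9 and 12.8 CPM), had the lowest levels of these.

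Extracellular matrix genes formed a broad higher group that shares 10 tested genes with the stromal markers. Of 64 tested collagens and matrix genes 2 rose, exactTest called 21 higher and 2 lower, 39 lay above both controls and 5 below, and the median was 0.68. Of these 64 genes 37 were LMPP-low, and the other 27 gave a median of 0.64 with 16 above both controls. Those 27 still hold the stromal markers Fn1 and Fbn1, which reached 1.098 and 1.401 CPM in LMPPs and so escaped the mark. The median of 0.64 is therefore not a value without stromal markers. Without the 10 stromal markers the remaining 54 genes had a median of 0.56, with 29 above both controls, 5 below, 15 called higher by exactTest and none that passed limma. Col1a2, a chain of type I collagen, rose from 562 and 434 to 1311 and 1087 CPM (1.27, SE 0.23, adjusted p = 0.045). Sparc, a matrix glycoprotein that binds collagen, rose from 264 and 230 to 680 and 588 CPM (1.36, SE 0.21). Both are stromal markers and were LMPP-low, at no more than 0.412 and 0.480 CPM. The collagen-processing genes Pcolce (46.0 and 28.6 to 125 and 122 CPM), Fkbp10 (21.2 and 15.5 to 51.9 and 50.8 CPM) and Serpinh1 (65.6 and 45.7 to 140 and 141 CPM) rose as well, with 2.68, 0.173 and 1.09 CPM at most in LMPPs. Matrix proteases had a median of 0.53 over 39 genes and 0.56 over the 24 that were not LMPP-low, and actin and smooth muscle genes 0.72 over 16 and 0.30 over 9. Cathepsins, serpins and cystatins had 0.55 over 31 and 0.40 over 23, with 20 of the 31 above both controls and 5 below. In that list 3 genes rose: Serpinh1, Serpinb6a (38.6 and 32.0 to 87.4 and 81.4 CPM) and Serpinf1 (36.1 and 37.9 to 80.7 and 91.3 CPM). For FGF, PDGF, VEGF and IGF ligands and receptors the median was 0.65 over 24 genes and 0.57 over 13. The part of the stromal RNA in these values was not tested.

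Neural and guidance genes were likewise on the higher side. Ngfr, the low-affinity neurotrophin receptor, had the largest rise on the log2(CPM + 1) scale among the genes that passed, from 15.9 and 7.88 to 55.9 and 50.5 CPM (2.14, SE 0.31, adjusted p = 0.021), and was LMPP-low at up to 0.0757 CPM. As a plain ratio of mean CPM its 4.48 was below the 5.71 of Ccl2, the 5.38 of Ccl9 and the 4.62 of Ccl7. Of 43 tested axon guidance genes none passed limma, exactTest called 5 higher and 1 lower, and 20 lay above both controls and 7 below. The median was 0.58 (0.52 over the 24 that were not LMPP-low). Pair medians were 0.64 and 0.47 for Pcgf1-KO 1 but 0.19 and 0.26 for Pcgf1-KO 2. Plxna2, a semaphorin receptor, had 1.29 and 1.12 against 4.32 and 4.14 CPM. Protocadherins, adhesion molecules of neurons, had a median of 0.92 over 30 genes, with 26 above both controls. For the 22 genes of the Pcdhga, Pcdhgb and Pcdhgc clusters this is largely 1 measurement, since exons that they share stand in the table under each symbol. Apart from Pcdhgc3, they lay between 16.4 and 18.9 CPM in control and between 31.9 and 34.5 CPM in Pcgf1-KO: Pcdhga1 had 17.7 and 17.5 against 33.1 and 32.4 CPM and Pcdhga12 had 16.5 and 16.5 against 32.6 and 31.9 CPM. The other 8 protocadherins had a median of 0.13, with 4 above both controls and 2 below.

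Factors of stem cells and development differed in how far LMPPs shared them. Of 23 tested stem and multipotent progenitor genes, all expressed in LMPPs, none passed limma, exactTest called 5 higher and none lower, 10 lay above both controls and 2 below, and the median was 0.20. Erg, a stem cell transcription factor, had 15.7 and 24.5 against 47.0 and 36.4 CPM. Egr1, an immediate early factor, had 1.75 and 2.95 against 8.15 and 10.7 CPM. Hox genes and cofactors had a median of 0.28 over 27 genes, with 6 called higher by exactTest, but 0.15 over the 17 that were not LMPP-low, of which 1 was called. Hoxc10 and Hoxc13, with the largest differences, stood at 0.0757 CPM and 0 in LMPPs. For developmental homeobox, Sox, Pax, Tbx, Fox and Gata factors the direction turned with the mark: the median was 0.31 over 67 genes and -0.16 over the 35 that were not LMPP-low. Megakaryocyte and erythroid genes, 10 tested, had a median of 0.25, and exactTest called Gp1bb, Nfe2 and Aqp1 higher.

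The 4 lists of myeloid factors, receptors, granule proteins and surface genes had medians between -0.14 and 0.11. Myeloid transcription factors had a median of 0.03 over 19 genes, with Irf4 fallen. ExactTest also called Irf8, a factor of monocytes and dendritic cells, lower (38.1 and 47.1 against 20.6 and 22.6 CPM), and Egr1 and Maf (2.08 and 0.52 against 7.02 and 3.15 CPM) higher. Myeloid cytokine and growth factor receptors had 4 of 11 genes above both controls, none below and none called. Granule and antimicrobial proteins had a median of 0.09 over 9 genes, with Lyz2, lysozyme, called higher by exactTest at low levels (1.44 and 0.89 against 4.35 and 2.78 CPM). Cd300lb, a receptor of myeloid cells, fell from 32.4 and 40.3 to 10.7 and 9.18 CPM and was the 1 of 25 macrophage and dendritic cell surface genes to pass. That list had a median of -0.14, 5 genes above both controls and 10 below, and 2 called higher and 3 lower by exactTest.

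Housekeeping lists differed by small amounts, and their genes are short. Oxidative phosphorylation, the genes of the respiratory chain, had a median of 0.36, with 50 of 78 genes above both controls and 4 below, and none passed limma. Cytosolic ribosomal proteins had a median of 0.23 over 91 genes. That list was formed by name and also holds other genes, among them the kinase Rps6ka5 and the paralog Rpl39l. Of the list only Rpl39l rose (7.13 and 4.76 to 19.3 and 20.3 CPM, LMPP-low). The proteasome had 0.20 over 37 genes, with 23 above both controls. The medians differed between the Pcgf1-KO libraries: for oxidative phosphorylation 0.07 and 0.34 in Pcgf1-KO 1 against 0.40 and 0.68 in Pcgf1-KO 2, and for ribosomal proteins -0.06 and 0.02 against 0.43 and 0.49. Median exonic lengths in the 3 lists were 1328, 1608.5 and 2326 bases, and against genes of like length the medians became 0.19, 0.08 and 0.13. The p53 targets (0.36 over 20 genes, with Phlda3 called by exactTest at 48.8 and 37.7 against 93.4 and 100.4 CPM) and the antioxidant genes (0.31 over 18, with 9 above both controls and none below) stood at 0.36 and 0.38 against genes of like length.

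The lists of DNA replication and mitosis held no called genes. DNA replication had a median of 0.05 over 43 genes, with 7 above both controls and 4 below, and mitosis had -0.14 over 39, with 6 and 15. This was so by limma and by exactTest. Ribosome biogenesis, cholesterol synthesis and the BAF remodeler had medians of 0.04, -0.05 and -0.05 and no called gene by either test. Aminoacyl-tRNA synthetases had a median of -0.19 over 20 genes, 11 below both controls and none above. Glycolysis had -0.24 over 19, where Hk2, a hexokinase, was called lower by exactTest (94.8 and 104 against 51.9 and 47.8 CPM). Its pair medians ran from -0.49 to 0.06, and control 2 differed from control 1 by a median of 0.35 over that list. Subunits of PRC1 had a median of -0.16 over 29 genes and those of PRC2 -0.11 over 12, with no call by either test. Among 298 zinc finger genes of the Zfp family 100 lay below both controls and 35 above (median -0.15), and Zfp217 was the one that fell, from 172 and 200 to 81.3 and 63.2 CPM.

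**Figure D4:**
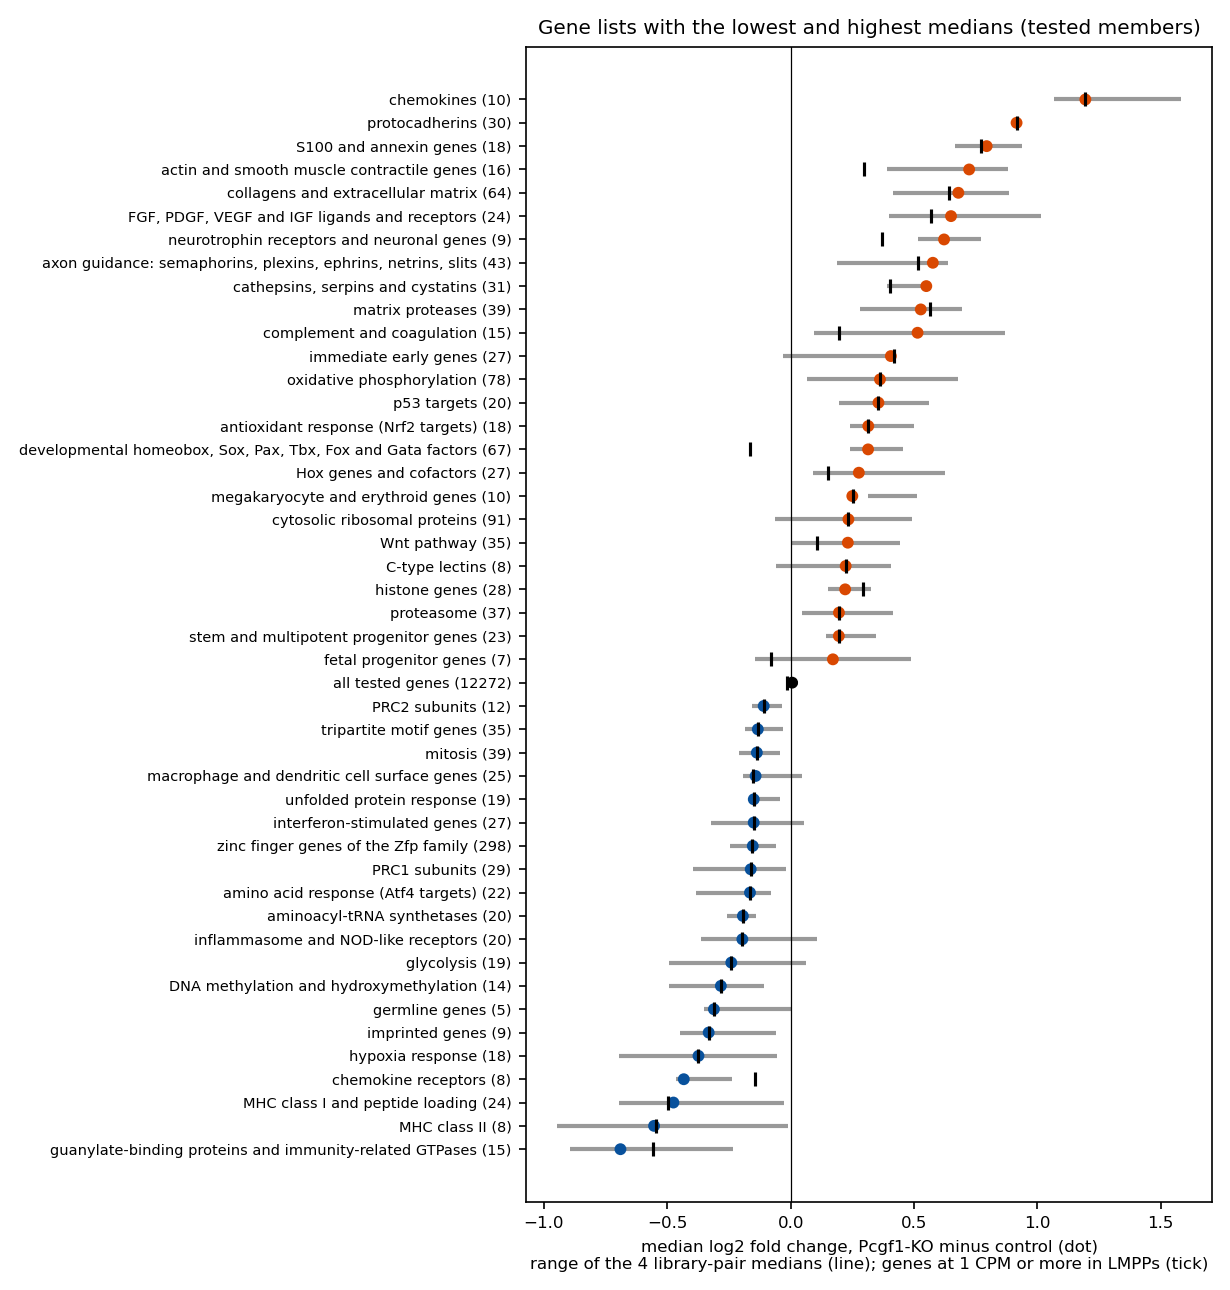
Median log2 fold change of Pcgf1-KO minus control (horizontal axis, dots) for the gene lists with the lowest and highest medians among those of 5 or more tested genes, with the number of tested genes in brackets; lines span the medians of the 4 library pairs, and ticks give the median over genes that were not LMPP-low. Chemokines lie highest at 1.19 and guanylate-binding proteins and immunity-related GTPases lowest at -0.69, with all tested genes at 0.01; for developmental factors the tick lies at -0.16 and the dot at 0.31.

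Families were also formed by name alone, from symbols that share the letters before the first digit or hyphen, which gave 184 families of at least 8 tested genes. The lowest medians were those of Gbp (-2.40, 9 genes), Kdm (-0.55, 15 genes), Arid (-0.53, 9 genes), Atf (-0.41, 9 genes) and Akap (-0.36, 12 genes). Kdm genes encode mostly histone lysine demethylases and Arid genes DNA-binding proteins, some of them remodeler subunits. Of the Kdm genes 11 lay below both controls and none above, and of the Arid genes 6 and none. But these genes are long, with median exonic lengths of 6954 and 7976 bases, and against genes of like length they stood at -0.39 and -0.30. Pair medians were larger in size for Pcgf1-KO 2. For Kdm they were -0.21 and -0.49 in Pcgf1-KO 1 against -0.55 and -0.75 in Pcgf1-KO 2. For Arid they were -0.25 and -0.27 against -0.68 and -0.87. The highest medians were those of Pcdhga (0.92, 12 genes), Mmp (0.80, 9 genes), Col (0.69, 27 genes), Gas (0.68, 8 genes) and Cyp (0.61, 10 genes). All 9 Mmp genes, matrix metalloproteinases, lay above both controls, and exactTest called 3 of them higher, among them Mmp14 (40.9 and 28.9 against 107 and 65.5 CPM). Of the 27 Col symbols 15 were LMPP-low. Col4a3bp, a lipid transfer protein, is counted there by its name only.

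By position, the Gbp locus was the only place where more than 2 genes passed limma within a stretch of 5 tested genes on each side. Gbp8, Gbp9, Gbp4, Gbp6 and Gbp11 lie on the reverse strand of chromosome 5 between 105443172 and 105772948 (NCBIM37). Abcg3, on one side, had 1.01 and 2.03 CPM in the controls and no read in Pcgf1-KO, and Lrrc8c, a volume-regulated anion channel subunit on the other, had 34.3 and 52.3 against 23.1 and 17.7 CPM. Both were called lower by exactTest only. S100a6 and S100a11 had each other and S100a4, S100a10 and S100a16 as neighbors called higher by exactTest, and Ccl2 and Ccl7 had each other. Of the 30 rises 4 had a neighbor that passed limma in the same direction, and of the 31 falls 5 did. Median log2 fold changes by chromosome lay between -0.10 (chromosome 12) and 0.07 (chromosome 10).

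LMPP-low genes were more often on the higher side. Of all tested genes 1036 (8.44%) were LMPP-low, and they had a median log2 fold change of 0.43, against -0.02 for the other 11236. Of the LMPP-low genes 509 (49.1%) lay above both controls and 114 (11.004%) below, against 23.4% and 22.3% of the others. Together they took 11184 and 10845 CPM in control against 17343 and 14394 CPM in Pcgf1-KO. They made up 7 of the 30 rises and 152 of the 462 genes that exactTest called higher, and 8 of the 31 falls and 26 of the 162 called lower. When they were left out before the p-values were adjusted, limma called 12 genes higher and 17 lower. The 12 were Anxa2, Ccl9, Ccnd1, Cd63, Ctla2a, Hmga2, Lgals3, Pcolce, Ptms, Ptrf, S100a11 and Tnfrsf12a. A gene that the feeder and the IdHPCs share is not marked in this way, nor is a gene that IdHPCs express and LMPPs do not kept apart from the feeder.

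**Figure D5:**
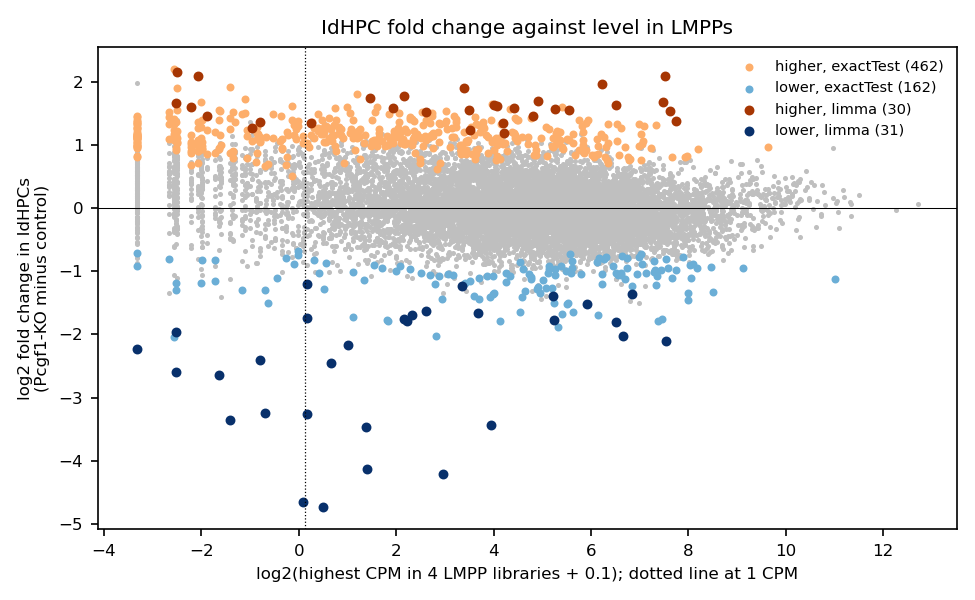
Log2 fold change in IdHPCs (vertical axis) of each of the 12272 tested genes against the log2 of its highest CPM in the 4 LMPP libraries plus 0.1 (horizontal axis), with genes called by exactTest and by limma in color and a dotted line at 1 CPM. Left of the line 509 of 1036 genes lie above both controls, and Gbp8, with the deepest fall on this log2(CPM + 1) scale (-4.73), lies just right of it at 1.30 CPM.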

How the data were processed

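Poly(A) RNA libraries were made by the authors and aligned to mm9, with HISAT2 in the study's methods and TopHat2 in the submitters' processing notes. Reads were counted with Rsubread and deposited as CPM, for rows that are exons under gene symbols, so a gene is not 1 row as the methods describe. Annotation, strand and the counting of reads that span rows are not given in the sources used here, so overlapping genes and paralogs can share reads. Where they are shared, count tests are too narrow. Each value was a whole multiple of 1 read (100% of values, tolerance 0.01), which gave the reads back. Intervals and floors (3 reads) cover counting error only.

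A row equal in all 4 libraries to the row before it under the same symbol (54922 of 204503 rows with reads, 26.9%) was counted once, rows were summed per symbol, and the authors' denominator was kept. One read was worth 0.0287 to 0.0471 CPM in the IdHPC libraries, which held 15717645 to 25292626 reads on distinct rows. Genes reaching 1 CPM in any library were tested with limma (version 3.58.1, R 4.3.3) on log2(CPM + 1), with a trend and empirical Bayes moderation, 2 libraries against 2. Fold changes on this scale understate those of low genes. p-values were adjusted by Benjamini-Hochberg over all tested genes. The authors' test, edgeR's exactTest (version 4.0.16), was run on recovered reads, where it called 462 and 162 genes, and DESeq2 was version 1.42.0. On simulated counts of 12043 genes, with 200 changed by a log2 fold change of 2 and a dispersion of 0.02, limma recovered 200 with 14 false calls. Real replicates can spread more.

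The 75 gene lists, 9 marker lists and the genes named were chosen with earlier results of these data known. Lists overlap, none was chosen by a test, and they are described by counts and medians without one. Genes named are drawn from Pcgf1, the 20 largest rises and falls that passed, and passing list members. In each list up to 3 members were added, with the largest difference among those whose groups do not overlap. Not all of these are described: Otof, Enam and Prrt2, among the largest falls, were left out. Abcg3, Cd22, Cd34, Cd74, Col4a3bp, Fkbp10, Flt3, Gbp2, Gbp7, H2-K1, Id3, Iigp1, Il7r, Irf8, Irgm1, Lax1, Lrrc8c, Mmp14, Pcdhga1, Pcdhga12, Pdgfrb, Ptprc, S100a4, S100a10, S100a16 and Tap1 were named after their values were seen. Fbn1 and Fn1 were also named after their values were seen. Exonic lengths and positions are from GENCODE M1 on NCBIM37. Comparing gene lengths was decided after the data were seen. A planned comparison of promoter CpG content is void, since fewer than 80% of the called genes (23 of 30 and 21 of 31) have a promoter in the reference table.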

Additional observations from a re-analysis of the deposited data

How the results depend on the processing

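The number of calls moved with the test and the filter. Against 30 higher and 31 lower genes, limma gave 18 higher with 1 CPM asked of 2 libraries, 0 and 0 with no filter (1360 and 639 at an unadjusted p under 0.05), 57 higher after median ratio rescaling, 114 and 57 after TMM rescaling, 19 higher over all listed rows, 0 and 3 without the row at the 3′ end, and 12 and 17 without LMPP-low genes. With the replicate block it gave 486 and 187. Same-numbered libraries deviated from their group means with r = 0.15 across genes, with only 2 pairs and no label of a shared day, so the numbers were not taken to pair them. On recovered reads exactTest called 462 and 162 genes, edgeR's quasi-likelihood test 77 and 48 and DESeq2 343 and 153; exactTest without the 3′ row called 164 and 75. Leaving out 1 library gave 0 to 222 higher and 15 to 565 lower by limma and 9 to 774 and 28 to 1085 by exactTest. All 61 genes passed under both rescalings, the block and the 3 count tests. Of the genes named by rule, none changed direction in a setting that tested it (as few as 188 genes without LMPP-low genes), and those named after their values were seen were not followed. The chemokine median, 1.19, was 1.59 with a pseudocount of 0.1, 1.496 with 2 libraries asked for, 1.81 by both edgeR tests, 1.78 by DESeq2, and 1.17 to 1.53 with 1 library left out. Leaving out 1 library moved the median of guanylate-binding proteins and immunity-related GTPases between -1.01 and -0.32 and that of MHC class I between -0.68 and -0.13. The S100 and annexin median was 0.58 against genes of like length. Of 71 list medians, 29 moved by more than the SD of their 4 library pairs without the 3′ row, 10 to 16 with 1 library left out, and 9 each of 71 without LMPP-low genes and of 70 against genes of like length. The exactTest runs without the 3′ row or a library, the length comparison and the splits of the matrix and protocadherin lists were added after seeing the data. With 2 libraries a group, 1 library decides many calls, and levels near 1 CPM rest on few reads.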
